A study of Mus musculus with 12 samples.

Results

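The genes described here encode the enzymes and regulators of cholesterol and fatty acid synthesis. They were taken by name from a fixed list, and all 29 genes of it were found among the 16617 genes of both deposited tables. Of these, 18 form the sterol branch, 6 form the fatty acid branch, and 5 act as regulators or sterol carriers. All 29 were among the 15990 genes that passed the filter on low counts, so no gene of the list was lost.

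The cells were adult mouse dorsal root ganglion (DRG) cultures on the C57B6 background, grown for 3 days on porous inserts. The inserts are meant to let neurites cross while cell bodies stay on top. Each culture came from the ganglia of 1 mouse. The groups were GAR+/- neurites (het neurites), GAR+/+ neurites (WT neurites), GAR+/- soma (het soma) and GAR+/+ soma (WT soma), with 3 libraries of ribosomal-RNA-depleted total RNA each and 12 in all. GAR commonly names the part of nucleolin, an RNA-binding protein, that is rich in glycine and arginine. Dissociated cells were recovered through a Percoll cushion, no selection of neurons is described, and all groups shared the same serum-containing medium.

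Cholesterol is built from acetyl-CoA through mevalonate and isoprenoid intermediates to squalene and lanosterol, and further steps turn lanosterol into cholesterol. Fatty acids are built from the same precursor by carboxylation, chain synthesis, elongation and desaturation. Sterol regulatory element-binding proteins (SREBPs) drive both branches when membrane sterol is low, and in peripheral nerve glial cells make much of the cholesterol and fatty acid of myelin.

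Library depth was 14873357 to 32213139 counts on named transcripts listed in both tables. The nucleolin gene Ncl had 426, 382 and 332 counts normalised to library size (CPM) in het neurites, against 463, 415 and 322 in WT neurites, and 251, 258 and 290 in het soma, against 218, 237 and 239 in WT soma. A count over the whole gene does not show whether a domain is missing, so it does not check the genotype. Neuronal markers, 9 of 9 measured, summed to 12484.9 to 16085.9 CPM in het neurites, 10297.7 to 13923.9 in WT neurites, 15153.0 to 18732.6 in het soma and 13806.9 to 16142.8 in WT soma. The markers of the labelled cell type were thus high in every group, and glial, fibroblast and proliferation markers were present in every group too. In bulk RNA, fewer cells of a type cannot be told apart from less RNA per cell.

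The deposited counts are per transcript, and for some of these genes they lie on transcripts that make no protein. For 20 of the 29 genes at least 90% of the counts lay on protein-coding transcripts. For the other 9, Mvk, Sqle, Lss, Tm7sf2, Msmo1, Dhcr7, Srebf1, Acly and Acaca, the share was under 60%. Lss, which makes lanosterol, had 0% of its 4837 counts on protein-coding transcripts and 100% on transcripts annotated with a retained intron. Sqle, the squalene epoxidase, had 90.1% of 1494 counts on retained-intron transcripts, and Msmo1, a sterol C4-methyl oxidase, had 50.1% of 10129. Dhcr7, which makes the final step to cholesterol, had only 263 counts over the 12 libraries.

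**Figure D1:**
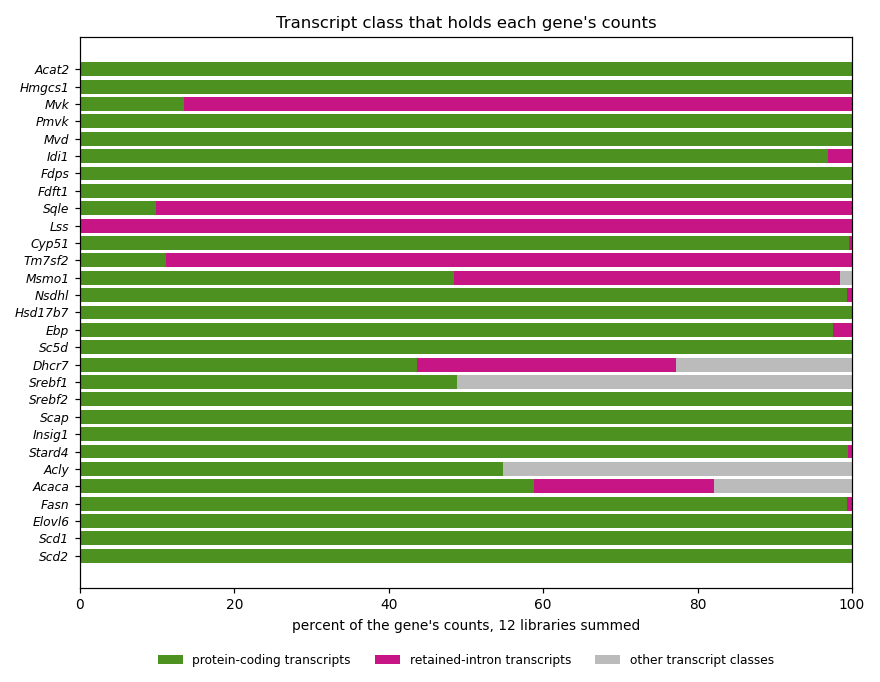
Horizontal bars give, for each gene, the percent of its counts over the 12 libraries that lay on protein-coding, retained-intron or other transcripts of GENCODE M21. The bars of Lss, Sqle, Tm7sf2 and Mvk are mostly retained-intron, with 100%, 90.1%, 88.8% and 86.5%, while those of Scd1, Scd2 and Hmgcs1 are 100% protein-coding.

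Across the genome the deposited tables held fewer of the transcripts that share their whole sequence. Of protein-coding transcripts of genes with several transcripts, 11.6% of those with 0 exonic bases of their own were in a table, against 85.2% of those with 500 or more. Lss-201, Sqle-201 and Dhcr7-201, the longest coding transcripts of their genes, have 0 such bases, and Lss-201 and Dhcr7-201 were in neither table. The counts of the 9 genes are therefore reported as counts on the listed transcripts, and levels are compared between genes only for the other 20. These 20 were kept for their share on protein-coding transcripts, and some have few bases of their own as well. The listed transcripts of Hmgcs1 and Fdft1 have 0, that of Mvd has 26 and that of Fdps has 68. How reads shared by transcripts were assigned is not stated.

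Per transcript length, the 20 genes spanned 5.50 to 1483.1 counts scaled to transcript length and library size over all libraries. Scd2, a stearoyl-CoA desaturase that puts a double bond into saturated fatty acids, had the highest mean level in each group: 805 ± 173 in het neurites, 1161.0 ± 163 in WT neurites, 673 ± 31.6 in het soma and 900 ± 108 in WT soma (SD, n = 3 each). Its relative Scd1, above Hmgcs1 in WT neurites and below it in the other groups, had 598 ± 95.9, 1055.6 ± 430, 338 ± 7.75 and 439 ± 14.3 in the same order of groups. Hmgcs1, the synthase that makes HMG-CoA in the mevalonate pathway, had 708 ± 66.6, 798 ± 63.6, 587 ± 65.9 and 673 ± 49.7. Ebp, the sterol isomerase, was lowest, with 7.00 ± 0.485, 7.32 ± 1.58, 7.20 ± 0.810 and 9.44 ± 0.976. In WT soma the 5 highest were Scd2, Hmgcs1, Scd1, Fdps and Fdft1. Without division by length 4 of these were among the 5 highest, with Fasn in place of Fdps.

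The 29 genes together took 0.641% to 0.772% of the counts in het neurites, 0.757% to 0.995% in WT neurites, 0.588% to 0.658% in het soma and 0.641% to 0.741% in WT soma. Scd1 and Scd2 made up 42.9% to 48.3% of that in het neurites, 46.2% to 58.5% in WT neurites, 39.2% to 41.9% in het soma and 41.5% to 45.2% in WT soma. These 2 desaturases thus held the largest part of the list's counts. How reads that match both of these similar genes were assigned is not stated.

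In WT cultures the clearest difference between the compartments was that of Scd1. Scd1 (ENSMUSG00000037071.3, GRCm38 chromosome 19, 44394455 to 44407879, minus strand) had 1300.2, 3217.4 and 2316.6 CPM in WT neurites, against 822, 962 and 943 CPM in WT soma. Every neurite library lay above every soma library, though the first of them sat well below the other two. Its log2 fold change was 1.33 ± 0.25 (SE), with an adjusted p of 0.0192 by edgeR's quasi-likelihood test. Scd1 was the only 1 of the 29 genes past the threshold of 0.05, where 3.10% of all 15990 genes passed it. The adjusted p was 0.0856, 0.0856 and 0.0553 without WT soma replicates 1, 2 and 3, and 0.0948 when only these 6 libraries were fitted.

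Scd2 lies on chromosome 19 too, at 44293674 to 44306864. It had 2338.7, 2873.3 and 3248.3 CPM in WT neurites, against 1737.5, 2431.3 and 2159.5 in WT soma. These ranges overlapped, and the log2 difference of 0.42 ± 0.16 had an adjusted p of 0.170 by edgeR. Of the other fatty acid genes, Fasn, the chain-building synthase, was at 0.02 ± 0.12, Acaca, the carboxylase, at -0.05 ± 0.18, Elovl6, which elongates palmitate, at -0.12 ± 0.10, and Acly, which makes cytosolic acetyl-CoA, at -0.13 ± 0.12. None of these 4 passed the test, and their values lay closer to 0 than those of the desaturases.

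Genes of the sterol branch lay mostly a little higher in WT neurites. Of 18, 15 had a positive log2 fold change, where 50.7% of all genes did. The median was 0.16 and the median over all genes tested was 0.01, and 0 passed the threshold. Hmgcs1 had 1043.6, 1264.7 and 1146.2 CPM in WT neurites, against 809, 1030.8 and 972 in WT soma, with no overlap. Fdps, the farnesyl diphosphate synthase, had 212, 181 and 216 CPM in WT neurites, against 160, 168 and 174 in WT soma, also with no overlap. Their log2 fold changes were 0.30 ± 0.11 and 0.28 ± 0.10, and their edgeR adjusted p-values 0.158 and 0.154.

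Over the 29 genes, 8 were higher in WT neurites at an unadjusted p under 0.05, where 11.4% of all genes were, and 7 had libraries wholly above those of WT soma, where 12.4% of all genes did. The 8 were Scd1, Fdps, Hmgcs1, Scd2, Nsdhl, Cyp51, Sc5d and Mvd. When cultures of one number were paired within genotype, Cyp51, the lanosterol demethylase, also passed, so that 2 of 29 genes were called where 9.31% of all genes were. Cyp51 had 426, 273 and 376 CPM in WT neurites, against 270, 259 and 258 in WT soma.

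The median log2 fold change of the fatty acid branch was -0.02 for the 6 genes and 0.22 for the 4 counted on protein-coding transcripts, Fasn, Elovl6, Scd1 and Scd2, so its direction depended on which genes were kept. The 5 regulators and carriers had a median of -0.01 and values from -0.04 to 0.16.

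Schwann cell and myelin markers, 9 of 10 measured, summed to 1042.6 to 1085.5 CPM in WT neurites and 978 to 1003.1 in WT soma, and 2 of the 9 rose in neurites. Satellite glia markers, 6 of 6, summed to 1196.2 to 1345.8 CPM in WT neurites and 816 to 1151.9 in WT soma, with 1 that rose. Proliferation markers, 5 of 5, summed to 554 to 983 CPM in WT neurites and 442 to 644 in WT soma. None of them passed the test. Of the neuronal markers 2 fell. Whether cell bodies crossed the inserts was not tested. The part of these cell types in the Scd1 difference was not tested.

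In het cultures 0 of 29 genes passed the threshold between the compartments by edgeR, where 0.638% of all genes did. DESeq2 called 0 of 29 as well, where it called 2.50% of all genes, and limma voom 0 of 29, where it called 0.488%. Scd1 had 1298.2, 1487.2 and 1075.4 CPM in het neurites, against 719, 761 and 842 in het soma. The groups did not overlap, but the log2 difference of 0.73 ± 0.25 had an adjusted p of 0.211 by edgeR. The adjusted p was 0.0298 when only these 6 libraries were fitted and 0.0376 without WT neurites replicate 1, so the call depended on the libraries in the fit. It was the only gene of the list higher at an unadjusted p under 0.05, where 7.64% of all genes were.

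Scap and Elovl6 were the 2 genes of the list that lay lower in het neurites at an unadjusted p under 0.05, where 6.75% of all genes did. Scap, the escort protein that carries SREBPs to the Golgi when sterol is low, had 166, 176 and 130 CPM in het neurites, against 178, 183 and 206 in het soma. Its log2 difference was -0.27 ± 0.11 (edgeR adjusted p = 0.278). Elovl6 had 74.5, 80.3 and 64.2 CPM in het neurites, against 90.5, 85.9 and 82.9 in het soma, a difference of -0.24 ± 0.10 (edgeR adjusted p = 0.291). In all, 6 of 29 genes lay wholly below het soma, where 10.6% of all genes did, and the medians of the sterol and fatty acid branches were 0.02 and 0.00.

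**Figure D2:**
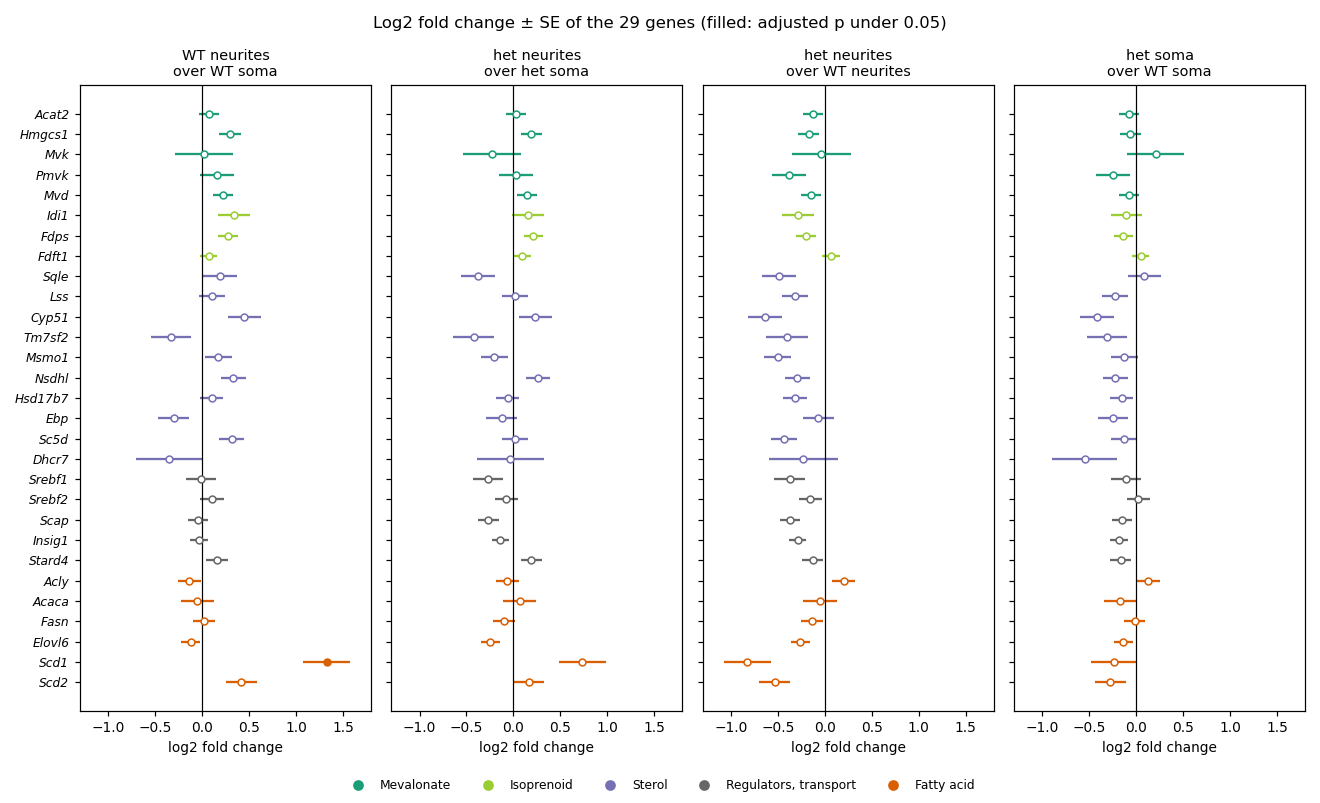
Points give the log2 fold change of each gene with its SE, in 4 comparisons, coloured by step of the pathway, and a filled point has an adjusted p under 0.05. Scd1 in WT neurites over WT soma, at 1.33, is the only filled point, and 27 of 29 points lie left of 0 in het neurites over WT neurites.

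Between the genotypes, in neurites, nearly all of the list lay lower in het cultures, but no gene passed the threshold by edgeR. Of 29 genes, 27 had a negative log2 fold change, where 51.5% of all genes did, with a median of -0.28, against -0.01 over all genes tested. At an adjusted p under 0.05 the count was 0 of 29, where 3.27% of all genes passed. At an unadjusted p under 0.05, 13 of 29 were lower, where 13.2% of all genes were, and 0 were higher. DESeq2 called 5 of 29 (Cyp51, Msmo1, Scap, Scd1 and Scd2), all lower, where it called 7.04% of all genes, and limma voom called 0, where it called 3.81%. By edgeR 6 of 29 passed without het neurites replicate 1, all lower, where 6.81% of all genes passed. Without WT neurites replicate 2 the count was also 6 of 29, 5 lower and Acly higher, where 10.8% of all genes passed. It was 0 of 29, where 0.00% of all genes passed, when only the 2 groups were fitted. The same held without het neurites replicate 2, het neurites replicate 3 or WT neurites replicate 3.

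Cyp51 (ENSMUSG00000001467.5, GRCm38 chromosome 5, 4081145 to 4104746, minus strand) had the smallest p of the list. It had 299, 204 and 190 CPM in het neurites, against 426, 273 and 376 in WT neurites. The first het library lay above the second WT library, so the groups overlapped. The log2 difference was -0.64 ± 0.18, with an adjusted p of 0.0680 by edgeR and 0.0183 by DESeq2, and 0.00299 to 0.242 over the 22 alternatives run.

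Msmo1 had 36.9, 28.6 and 25.7 CPM in het neurites, against 45.1, 35.6 and 48.1 in WT neurites, a log2 difference of -0.50 ± 0.15 (edgeR adjusted p = 0.0712, 0.0148 to 0.256 over the alternatives). These groups overlapped as well. Sqle, which makes the first oxygenation step of sterol synthesis, had 4.83, 4.34 and 3.88 CPM in het neurites, against 5.32, 5.78 and 7.00 in WT neurites, a log2 difference of -0.48 ± 0.18 (edgeR adjusted p = 0.148). Its groups did not overlap, but its counts were mostly those of retained-intron transcripts. Sc5d, a sterol desaturase, had 54.9, 45.4 and 38.5 CPM in het neurites, against 66.0, 57.6 and 63.6 in WT neurites, without overlap.

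Among the regulators, Scap had 166, 176 and 130 CPM in het neurites, against 200, 196 and 214 in WT neurites. Its log2 difference was -0.37 ± 0.11 (edgeR adjusted p = 0.0726, 0.0332 to 0.257 over the alternatives), and the groups did not overlap. Insig1, which holds Scap in the endoplasmic reticulum and is itself an SREBP target, had 223, 192 and 195 CPM in het neurites, against 251, 233 and 260 in WT neurites, also without overlap. Its difference was -0.29 ± 0.09 (edgeR adjusted p = 0.0974). All 5 regulators and carriers were negative, with a median of -0.29.

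In the fatty acid branch, Scd1 had 1298.2, 1487.2 and 1075.4 CPM in het neurites, against 1300.2, 3217.4 and 2316.6 in WT neurites. One WT library stood within the het range, and the log2 difference of -0.82 ± 0.25 had an adjusted p of 0.0897 by edgeR. It was -1.10 without WT neurites replicate 1, with an adjusted p of 0.0324, and -0.49 without WT neurites replicate 2, with an adjusted p of 0.136, so single WT libraries set its size. Scd2 had 2297.7, 2001.2 and 1552.5 CPM in het neurites, against 2338.7, 2873.3 and 3248.3 in WT neurites, without overlap, at -0.53 ± 0.16 (edgeR adjusted p = 0.0856). Elovl6 had 74.5, 80.3 and 64.2 CPM in het neurites, against 93.4, 81.9 and 86.8 in WT neurites, without overlap. Acly, at 0.20 ± 0.12, and Fdft1, the squalene synthase, at 0.07 ± 0.09, were the 2 positive genes.

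**Figure D3:**
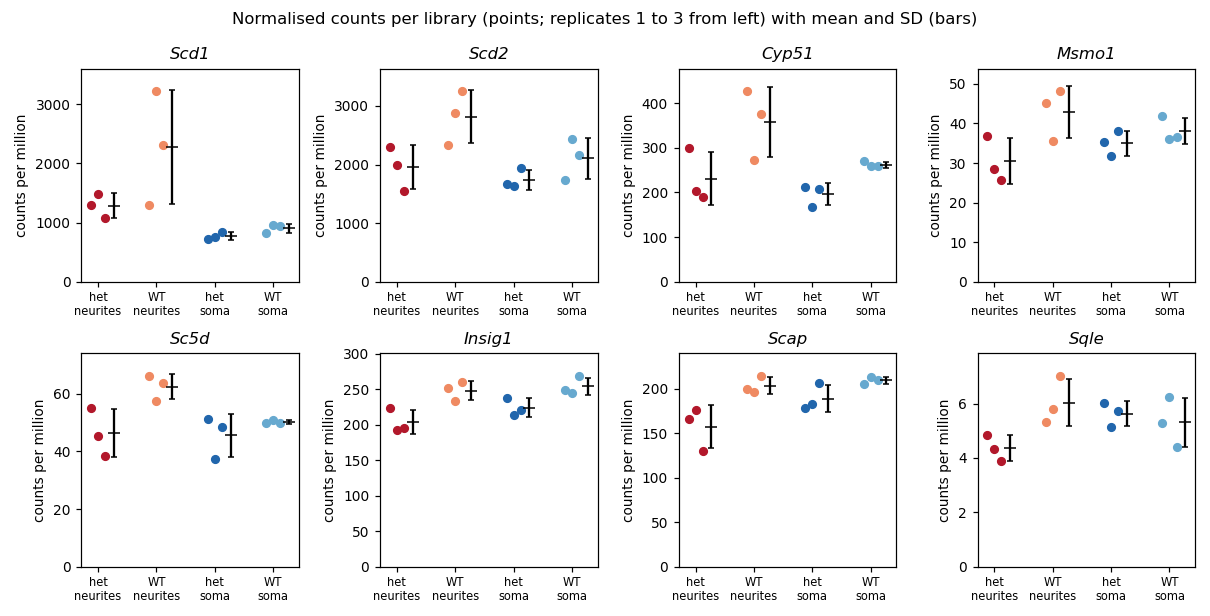
Points give the CPM of 8 genes in each of the 12 libraries, by group, with the group mean and SD beside them and axes from 0. In Scd1 the WT neurite libraries range from 1300.2 to 3217.4 CPM and the het neurite libraries from 1075.4 to 1487.2. In Cyp51 both het groups average lower than their WT counterparts, 231 against 359 CPM in neurites and 196 against 262 in soma.

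Both branches leaned the same way, and the difference between them was not tested. The median log2 fold change of het neurites over WT neurites was -0.29 in the sterol branch, with 17 of 18 genes negative, and -0.20 in the fatty acid branch, with 5 of 6 negative. It was -0.40 for the 4 fatty acid genes counted on protein-coding transcripts. Of the 29 genes, 8 lay wholly below WT neurites, where 10.8% of all genes did. Over the 22 alternatives, 25 to 27 of the list stayed negative.

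Proliferation markers, 5 of 5 measured, summed to 241 to 464 CPM in het neurites and 554 to 983 in WT neurites, and 3 of the 5 fell. Schwann cell and myelin markers summed to 872 to 935 CPM in het neurites and 1042.6 to 1085.5 in WT neurites, and 2 of 9 fell. Satellite glia markers summed to 880 to 1125.1 CPM in het neurites and 1196.2 to 1345.8 in WT neurites, and 2 of 6 fell. Fibroblast markers, 6 of 6, summed to 696 to 1415.8 in het neurites and 961 to 2955.1 in WT neurites, and 0 passed the test. Of the neuronal markers 1 rose. The part of these cell types in the lower counts of the lipid genes was not tested.

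In soma the list leaned the same way by smaller amounts, and 0 of 29 genes passed the threshold by edgeR, where 0% of all genes did. Of 29, 24 were negative, where 48.5% of all genes were, with a median of -0.14, against 0.01 over all genes tested. DESeq2 called 0 of 29, where it called 1.75% of all genes, and limma voom 0 of 29, where it called 0.00%. Pairing the cultures of one number also called 0 of 29, where it called 3.25% of all genes. At an unadjusted p under 0.05, 1 gene was lower, where 7.05% of all genes were.

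That gene was Cyp51, with 212, 168 and 208 CPM in het soma, against 270, 259 and 258 in WT soma. The groups did not overlap, and the log2 difference was -0.42 ± 0.18 (edgeR adjusted p = 0.480, 0.0423 to 0.998 over the alternatives). Insig1 had 238, 213 and 221 CPM in het soma, against 249, 245 and 268 in WT soma, at -0.18 ± 0.09 (edgeR adjusted p = 0.597). Scd2 had 1660.1, 1627.2 and 1938.9 CPM in het soma, against 1737.5, 2431.3 and 2159.5 in WT soma, which overlapped, at -0.28 ± 0.16 (edgeR adjusted p = 0.666). Scd1, with 719, 761 and 842 CPM in het soma against 822, 962 and 943 in WT soma, was at -0.23 ± 0.25. In all, 5 of 29 genes lay wholly below WT soma, where 11.9% of all genes did. Schwann cell and myelin markers summed to 809 to 938 CPM in het soma and 978 to 1003.1 in WT soma, without overlap, and satellite glia markers to 795 to 906 in het soma and 816 to 1151.9 in WT soma. The median log2 fold changes of these lists were -0.22 and -0.67, and 0 of their genes passed the test. Proliferation markers summed to 177 to 259 CPM in het soma and 442 to 644 in WT soma, and fibroblast markers to 594 to 1057.2 in het soma and 1042.1 to 1974.6 in WT soma. Endothelial and pericyte markers, of which 3 of 4 were tested, summed to 372 to 401 CPM in het soma and 354 to 384 in WT soma. Macrophage markers, of which 2 of 5 were tested, summed to 5.16 to 10.3 in het soma and 5.46 to 6.37 in WT soma. The part of these cell types in the soma values was not tested.

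The authors' deposited table, which tests single transcripts within each compartment, gives Cyp51-201 a log2 fold change of het over WT of -0.41 with a false discovery rate of 0.00161 in soma and -0.62 with 0.0023 in neurites. In the authors' deposited table Scd1-201 stands at -0.72 with 0.0156 in neurites. These 3 entries are the transcripts of the list at a false discovery rate of 0.05 or less. They are 1 of 75 in soma, where 4.24% of all transcripts are, and 2 of 73 in neurites, where 3.02% are.

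Whether genotype changed the neurite-to-soma ratio was tested as the interaction. By edgeR 0 of 29 genes passed, where 0% of all genes did, and DESeq2 and limma voom called 0 of 29 each, where each called 0.00%. At an unadjusted p under 0.05, 1 gene was lower, where 0.657% of all genes were. It was Sqle, whose interaction was -0.57 ± 0.25 on the log2 scale (edgeR adjusted p = 1.00), with 4.83, 4.34 and 3.88 CPM in het neurites against 6.03, 5.13 and 5.73 in het soma, and 5.32, 5.78 and 7.00 in WT neurites against 5.27, 6.23 and 4.41 in WT soma. Scd1 was at -0.59 ± 0.35 and Msmo1 at -0.37 ± 0.20. The log2 difference of Scd1 between compartments, 0.73 in het cultures and 1.33 in WT cultures, was therefore not shown to differ between genotypes.

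**Figure D4:**
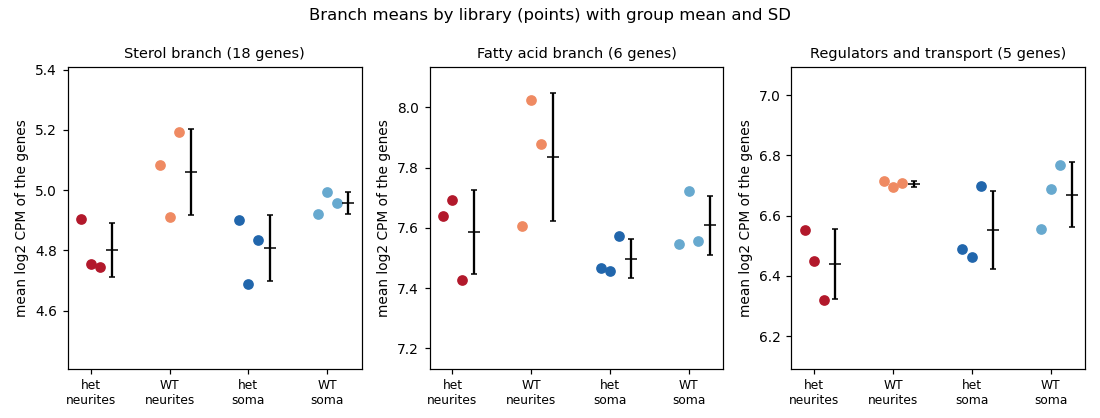
Points give, for each library, the mean log2 CPM over the genes of a branch, with the group mean and SD, on axes that span 1 log2 unit and do not start at 0. The sterol branch averages 4.80 in het neurites and 5.06 in WT neurites, and 4.81 in het soma and 4.96 in WT soma.

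The distance between the branches was also taken within each library. The mean log2 CPM of the sterol branch minus that of the fatty acid branch was -2.79 ± 0.13 in het neurites, -2.77 ± 0.31 in WT neurites, -2.69 ± 0.11 in het soma and -2.65 ± 0.07 in WT soma (SD, n = 3 each). The widest single value, -3.12, was that of WT neurites replicate 2, the library with the highest Scd1. The group means differed by less than the spread among WT neurite libraries.

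Variation within groups is given as a description. After the group means were subtracted, the branch means had a Pearson r of -0.07 over the 12 libraries, and the median r between pairs of genes was 0.26 within the sterol branch and 0.33 within the fatty acid branch. These points share library and depth. By the same measure the genes outside the list most like the sterol branch mean were E2f8 (r = 0.929), Kcnh3 (0.927), Slitrk2 (0.923), Zfp53 (0.919) and Zfp672 (0.909). Their mean levels over the 12 libraries were 1.07 to 17.6 CPM. They were picked as the highest r among all tested genes outside the list, and no test of r was made.

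Of 22 further lipid genes, 20 were tested. Between WT neurites and WT soma 3 of the 20 rose and 0 fell, where 385 of all 15990 genes rose and 110 fell (3.10% in all). Fads2, a fatty acid desaturase, had 254, 298 and 323 CPM in WT neurites, against 161, 197 and 200 in WT soma, a log2 fold change of 0.65 ± 0.15 (edgeR adjusted p = 0.0327). Fads1, another desaturase, rose by 0.53 ± 0.12 (edgeR adjusted p = 0.0354), and Me1, the malic enzyme that supplies NADPH for lipid synthesis, by 0.75 ± 0.14 (edgeR adjusted p = 0.0124).

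Between het neurites and WT neurites 3 of the 20 fell and 0 rose, where 444 of all 15990 genes fell and 79 rose (3.27% in all). Fads2 had 190, 145 and 116 CPM in het neurites, against 254, 298 and 323 in WT neurites, a log2 fold change of -0.96 ± 0.15 (edgeR adjusted p = 0.0124). Fads1 had 486, 409 and 332 CPM in het neurites, against 614, 645 and 688 in WT neurites, at -0.67 ± 0.13 (edgeR adjusted p = 0.0215). Lbr, a protein of the inner nuclear membrane with sterol reductase activity, had 69.8, 48.3 and 49.1 CPM in het neurites, against 110, 75.6 and 111 in WT neurites, at -0.83 ± 0.17 (edgeR adjusted p = 0.0257). In all 3 genes every het library lay below every WT library. These calls depended on the libraries in the fit. No gene of all those tested passed when only the 2 groups were fitted. Nor did any pass without het neurites replicate 2, het neurites replicate 3 or WT neurites replicate 3.

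Between het soma and WT soma 0 of the 20 passed, and Fads2 and Fads1 had the smallest p, at -0.69 ± 0.15 and -0.41 ± 0.12 (edgeR adjusted p = 0.111 and 0.220). For the interaction 0 passed, and Mbtps1 and Elovl1 had the smallest p. Mbtps1 had only 0.106 to 0.734 CPM over the 12 libraries. Its 0.106 CPM in het neurites replicate 1 lay under the 0.16 CPM that 3 counts make in that library.

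The promoters of the list were searched for sequence that its genes share, as a description only. Windows of 250 bases before to 50 after the start were found in RefSeq (GRCm38.p6) for 23 of the 29 genes, all but Fdft1, Fdps, Scd1, Scd2, Sqle and Stard4. The NF-Y box CCAAT, on either strand, was in 19 of the 23 (82.6%), in 41.1% of 27025 genes with a window and in 42.0% of the 11177 of these in both tables. It was in 14 of 15 sterol branch genes and 2 of 4 fatty acid genes. The Sp1 box GGGCGG was in 19 (82.6%), the E-box CACGTG in 5 (21.7%), and the core of the sterol regulatory element, TCACNCCAC, in 1 (4.35%), where 66.1%, 11.2% and 1.41% of the genes in both tables held them. Both strands were searched, and a gene with several windows counted once.

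The windows of 5 genes are given as the 200 bases before the start, 5′ to 3′ on the strand of the gene, with CCAAT or its reverse complement ATTGG and the sterol regulatory element core in capitals. They are Hmgcs1, which holds the exact core, Cyp51 and Msmo1, the sterol genes with the smallest p between neurites of both genotypes, and Fasn and Elovl6, fatty acid genes with and without CCAAT.
Hmgcs1, chr13:119690151-119690350, plus strand: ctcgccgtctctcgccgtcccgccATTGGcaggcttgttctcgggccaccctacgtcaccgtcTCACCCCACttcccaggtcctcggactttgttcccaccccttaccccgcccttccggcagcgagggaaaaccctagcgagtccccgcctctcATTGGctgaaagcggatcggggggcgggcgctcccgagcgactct
Cyp51, chr5:4104698-4104897, minus strand: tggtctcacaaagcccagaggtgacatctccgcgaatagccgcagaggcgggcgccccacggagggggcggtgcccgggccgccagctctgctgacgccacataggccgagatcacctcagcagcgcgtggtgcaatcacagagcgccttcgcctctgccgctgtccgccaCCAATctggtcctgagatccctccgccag
Msmo1, chr8:64733579-64733778, minus strand: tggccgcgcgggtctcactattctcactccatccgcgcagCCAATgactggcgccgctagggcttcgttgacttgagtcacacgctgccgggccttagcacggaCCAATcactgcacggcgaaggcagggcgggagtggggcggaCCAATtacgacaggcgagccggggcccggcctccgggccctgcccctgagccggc
Fasn, chr11:120824548-120824747, minus strand: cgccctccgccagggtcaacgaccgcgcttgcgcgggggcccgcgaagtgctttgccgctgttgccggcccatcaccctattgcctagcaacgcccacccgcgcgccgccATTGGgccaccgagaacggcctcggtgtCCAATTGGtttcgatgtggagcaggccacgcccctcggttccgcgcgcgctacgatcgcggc
Elovl6, chr3:129532186-129532385, plus strand: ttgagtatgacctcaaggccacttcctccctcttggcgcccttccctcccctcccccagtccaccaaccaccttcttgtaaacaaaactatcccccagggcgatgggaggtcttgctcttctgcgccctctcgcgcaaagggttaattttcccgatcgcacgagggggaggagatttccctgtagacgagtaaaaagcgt
The core of Hmgcs1 begins 137 bases before the start, between CCAAT boxes at 176 and 45. Msmo1 has CCAAT boxes at 160, 96 and 55 bases before its start, Cyp51 has 1 at 29, and Fasn has boxes at 90, 62 and 59, of which the nearest pair overlaps on opposite strands. Letters in a window show neither binding nor regulation.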

How the data were processed

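RNA was measured in 12 libraries, prepared per the labels with a stranded, ribosomal-RNA-depleting kit. The authors deposited 2 tables of raw counts per transcript, 1 for soma and 1 for neurites, with the log2 fold change of het over WT, its p-value and its false discovery rate, per the file headers. CASAVA 1.8.2 and edgeR, with mm10/GRCm38, are named in the submitters' processing notes. No source used here names the aligner, the counting rule for shared reads or the annotation release. Every transcript in the deposited tables has at least 5 counts in at least 3 libraries. Rows without a gene name, 0.574% to 0.694% of the counts, and 24 other per-sample columns were not used.

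Counts of transcripts in both tables were summed per gene, filtered (filterByExpr), scaled by TMM and fitted with edgeR 4.0.16 (robust quasi-likelihood, 4 groups in 1 fit, R 4.3.3), with Benjamini-Hochberg adjustment over all 15990 genes and a threshold of 0.05. CPM are divided by TMM-scaled totals, and log2 CPM use a prior count of 2. DESeq2 1.42.0, limma voom 3.58.1, other scalings, filters and samples were alternatives. The script was tested on simulated data. The floor of 3 counts was 0.0925 to 0.200 CPM, and these limits cover counting error only. Transcript classes and lengths come from GENCODE M21.

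Values per library were given by rule for members past the threshold and for the 3 with the smallest p in each comparison, and for related genes past the threshold. Sc5d, which falls outside that rule, was added after its values were seen. One result on the related genes is not reported here. The members and lists were chosen with earlier results of these data known.

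Pairing by replicate number was checked by the correlation of deviations from group means. Between WT neurites and WT soma it was 0.278, 0.341 and 0.230. Between het soma and WT soma it was 0.222, 0.273 and 0.159. Each lay over 0.1, so a fit paired by number is given for these comparisons beside the main fit. The main fits used no pairing. The labels do not say what a number marks.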

Additional observations from a re-analysis of the deposited data

How the results depend on the processing

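The number of the 29 genes past the threshold, 1 (Scd1) in WT neurites against WT soma and 0 elsewhere, depended on the design. Leaving out single libraries gave 0 to 2 for WT neurites against WT soma, where 0.575% to 6.62% of all genes passed. Each fit without a WT soma library gave 0. For het neurites against het soma the count was 0 to 1, where 0.00% to 1.18% of all genes passed. For het neurites against WT neurites it was 0 to 6, where 0.00% to 10.8% passed. The 6 came without het neurites replicate 1 (6.81% of all genes) and without WT neurites replicate 2 (10.8%). The set without WT neurites replicate 2 held Acly, higher in het. With a replicate block, shared or within genotype, 2 passed between the WT compartments, where 9.44% and 9.31% of all genes did. Within genotype, 1 (Scd1, edgeR adjusted p = 0.0345) passed between the het compartments, where 4.20% of all genes did. The shared replicate block gave 5 between neurites of both genotypes (Cyp51, Insig1, Msmo1, Sc5d and Scap), where 10.6% of all genes passed. It changed no other count. DESeq2 also gave 5 between neurites, where 7.04% of all genes passed. In these pairs of groups the numbers are not shown to pair the samples: the correlations were 0.205, 0.256 and 0.050 between het compartments, each best with its own number, and 0.142, 0.224 and -0.037 between neurites. Fitting only the 2 groups compared gave 0 between the WT compartments, where 0.260% of all genes passed. Between neurites of both genotypes it also gave 0, where 0.00% passed. It gave 1 (Scd1) between the het compartments, where 0.589% passed, and 1 (Cyp51) in soma, where 2.49% passed. Counting all transcripts of the soma table also gave 1 (Cyp51) in soma, where 2.47% of all genes passed. That fit used the soma libraries alone as well, so it does not separate the transcripts counted from the libraries fitted. The cause was not tested.

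The fatty acid median became 0.22 in WT neurites over soma and -0.40 in het over WT neurites with protein-coding members, a choice made after seeing the data. The sterol median of het over WT neurites ranged from -0.35 to -0.18 without single libraries. With 1 mismatch, 10 of 23 promoters (43.5%) held the sterol element core, as did 29% of the genes in both tables. Per exclusive base, also chosen after seeing the data, 2 of the 5 highest genes stayed, but the others (Hmgcs1, Fdft1 and Fdps) have under 100 such bases and got no value, so this says nothing of the order. No called value changed sign in these alternatives. The values of Dhcr7, Mvk, Tm7sf2, Acaca and Sqle rest on the fewest reads.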
